A study of Mus musculus with 3 samples.

Results

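The transcripts described here are spliced transcripts that Cufflinks assembled from the reads of C2C12 cells at places where no RefSeq transcript was part of the same assembled locus. A transcript was taken where its identifier marked it as assembled, it had at least 2 exons, its FPKM (fragments by transcript length and by library depth) was at least 1, and no RefSeq transcript shared its locus in that library's file. The rule found 473 of 45942 listed transcripts for mock, 336 of 43463 for the library labelled shKSRP and 396 of 45980 for the BMP2 library. Of the transcripts assembled from reads these were 473 of 17240, 336 of 14761 and 396 of 17278. Joined wherever they shared exon bases on the same strand, the 3 sets made 745 loci. Because the rule used FPKM, the number and level of these transcripts are descriptions of 3 libraries, and no test is given for them.

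The series holds 3 RNA-seq libraries of C2C12 cells, a mouse line of mesenchymal precursors that grows as myoblasts, with 1 library in each group. One, called mock, is of mock-transfected, untreated cells grown with 20% FBS. Another, grown alike, is labelled as shKSRP-transfected, meaning a hairpin RNA directed at KSRP, the product of Khsrp, a protein that binds AU-rich mRNAs and promotes their decay. The BMP2 library is of mock-transfected cells in differentiation medium (2% horse serum), with BMP2 added at a dose stated as between 100 and 300 ng/ml, so that serum and growth factor cannot be told apart. The labels do not say whether the transfected cells were a pool or a clone, nor that the libraries came from separate cultures. RNA was selected for poly(A) tails in 2 rounds, and the sources used here do not say whether the library kit marks strand.

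Khsrp was at 31.4 ± 0.85 (mock), 28.4 ± 0.64 (library labelled shKSRP) and 27.1 ± 0.67 FPKM (BMP2), so each direction given for the library labelled shKSRP carries a doubt about that label. All 6 myoblast markers checked were above 1 FPKM, among them Des (desmin) and Myod1. The summed level of 4 osteoblast markers was 7.57 FPKM for mock, 2.18 for the library labelled shKSRP and 34.3 for the BMP2 library. In this order Bglap was at 7.34, 1.21 and 13.3, Alpl at 0.0518, 0.447 and 12.8 and Sp7 at 0.187, 0.527 and 8.12. Ibsp was listed at 0 in each library. Only Bglap was thus lower in the library labelled shKSRP than in mock, while Alpl and Sp7 were higher, below 1 FPKM in both. Cdh15, an adhesion molecule of myoblasts, was at 38.3, 31.1 and 5.02 FPKM in the same order, and the myoblast marker Myf5 at 7.75, 48.4 and 9.09. Myod1, Des, Itga7 and Vim were, like Cdh15, lower in the BMP2 library than in mock. Fabp4, the one of 3 adipocyte markers above 1 FPKM, was at 0.613, 0.531 and 5.10. The part of such cells in the results was not tested. The 3 neuronal, 3 endothelial and 3 epithelial markers were all below 1 FPKM. Each ± gives the distance from the FPKM to the upper end of its deposited 95% interval, which reflects errors of counting and of assigning reads, not spread between cultures. The widths of the intervals correspond to 61.9 M fragments for mock, 68.4 M for the library labelled shKSRP and 60.2 M for the BMP2 library. In such bulk libraries fewer cells of a type and less RNA per cell cannot be told apart.

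Assembly from reads can find genes that a reference annotation lacks. Long noncoding RNAs are spliced and carry poly(A) tails like mRNAs, are often low in level, and lie between genes, opposite to genes or head to head with the start of a gene. Assemblers take the strand of a spliced transcript from the bases at its splice sites, so in a library that does not mark strand an intron alone decides the strand of all the reads of its exons.

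The mm9 genome was not used here, and the introns were compared by their lengths and by gene order with GENCODE M21, a later annotation on the GRCm38 build. The exon junctions of 10 genes found in this way are given here as reference letters of GENCODE M21 transcripts. They were chosen because the results on coding genes, noncoding genes, host genes, antisense loci and T cell receptor segments describe them. Each line holds 30 bases before and 30 bases after the junction, 5′ to 3′, with the upstream exon in lower case and the downstream exon in capitals.
Snhg15: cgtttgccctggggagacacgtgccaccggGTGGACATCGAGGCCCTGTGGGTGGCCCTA
2900076A07Rik: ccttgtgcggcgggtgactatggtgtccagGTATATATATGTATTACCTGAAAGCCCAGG
3300005D01Rik: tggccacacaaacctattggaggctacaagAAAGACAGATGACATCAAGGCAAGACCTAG
2010001A14Rik: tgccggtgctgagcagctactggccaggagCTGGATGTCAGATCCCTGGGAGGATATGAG
Gm11033: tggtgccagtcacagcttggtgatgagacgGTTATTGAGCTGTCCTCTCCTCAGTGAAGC
1700113A16Rik: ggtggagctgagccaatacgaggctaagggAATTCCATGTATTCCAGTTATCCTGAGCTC
Gm11973: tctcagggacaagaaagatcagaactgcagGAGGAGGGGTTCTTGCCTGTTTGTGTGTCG
Rnf213: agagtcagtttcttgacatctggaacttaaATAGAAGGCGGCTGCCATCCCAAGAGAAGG
Srcap: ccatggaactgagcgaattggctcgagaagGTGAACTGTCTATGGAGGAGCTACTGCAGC
Trac: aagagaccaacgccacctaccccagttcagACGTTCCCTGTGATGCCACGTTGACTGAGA
The matching introns in the deposited files (mm9) were chr11:6428378-6428550 for Snhg15 (173 nt), chr7:88668563-88673672 for 2900076A07Rik, chr17:5799994-5801198 for 3300005D01Rik and chr11:57609297-57609527 for 2010001A14Rik. They were chr8:77352320-77357349 for Gm11033, chr3:87979858-87981508 for 1700113A16Rik, chr11:6391855-6393116 for Gm11973, chr11:119288984-119289326 for Rnf213, chr7:134672739-134673696 for Srcap and chr14:54840457-54841780 for Trac. The exact intron was assembled in all 3 libraries for 8 of the 10 genes. For Gm11973 and Rnf213 it was assembled in the library labelled shKSRP and the BMP2 library.

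Most of the transcripts were short in structure. Those with 2 exons made up 327 of 473 in mock (69.1%), 205 of 336 in the library labelled shKSRP (61.0%) and 260 of 396 in the BMP2 library (65.7%). Of the spliced assembled transcripts at RefSeq loci with at least 1 FPKM, 9.41%, 5.77% and 8.06% had 2 exons. Transcripts with 6 or more exons numbered 13, 23 and 15, and the most exons in any were 30, 57 and 33. The median spliced length was 1203 nt for mock, 1271 nt for the library labelled shKSRP and 1396.5 nt for the BMP2 library, against 2372, 2888.5 and 2567.5 nt for the spliced assembled transcripts at RefSeq loci. Both strands were used about equally, with 243, 162 and 213 transcripts on the plus strand. They lay on every autosome and on chromosome X, with the most on chromosome 2 in mock (47), on chromosome 11 in the library labelled shKSRP (32) and on chromosome 1 in the BMP2 library (35).

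Levels were low. The median was 3.37 FPKM for mock, 2.47 for the library labelled shKSRP and 2.71 for the BMP2 library, against 5.97, 4.98 and 5.42 for spliced assembled transcripts at RefSeq loci. Between 1 and 2 FPKM lay 149, 137 and 155 of the transcripts, and at 100 FPKM or more lay 13, 4 and 5. Nearest inside the minimum were transcripts near Gins1 (1.0007 FPKM) and Best3 (1.0020) in mock, near Zfp160 (1.0121) and Ets1 (1.0123) in the library labelled shKSRP, and near Cdc5l (1.0036) and Rbm4b (1.0046) in the BMP2 library. Nearest outside it were those near Jakmip2 (0.998) and Rnase2a (0.991), Nat9 (0.993) and Ttbk2 (0.988), and Gm5797 (0.9998) and Nab2 (0.9986). Below the minimum, 583, 757 and 670 further spliced transcripts without a RefSeq transcript had been assembled.

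By position, transcripts opposite to the exons of a RefSeq gene were the largest class in mock, and transcripts farther than 5 kb from any RefSeq gene were the largest in the other libraries. Opposite to exons lay 202 transcripts for mock (42.7%), 96 for the library labelled shKSRP (28.6%) and 136 for the BMP2 library (34.3%). Farther than 5 kb lay 173 (36.6%), 154 (45.8%) and 162 (40.9%). Divergent transcripts, which start within 5 kb of the start of a gene and run away from it, numbered 35, 35 and 40. Others overlapped the span of a gene but not its exons, on the opposite strand (20, 18 and 18) or on the gene's strand (12, 9 and 13). The rest were convergent (10, 11 and 12), upstream on the same strand (12, 11 and 13) or downstream on the same strand (9, 2 and 2). No transcript shared exon bases with a RefSeq transcript on its own strand.

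The class opposite to exons also had a higher median level than all other members together. Its median was 8.79 FPKM for mock, 5.15 for the library labelled shKSRP and 6.49 for the BMP2 library, against 2.25, 2.03 and 1.96 for all other members. It held 94 of the 138 transcripts at 10 FPKM or more for mock, 33 of 60 for the library labelled shKSRP and 47 of 83 for the BMP2 library. Divergent transcripts had medians of 1.63, 1.71 and 1.68 FPKM.

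**Figure D1:**
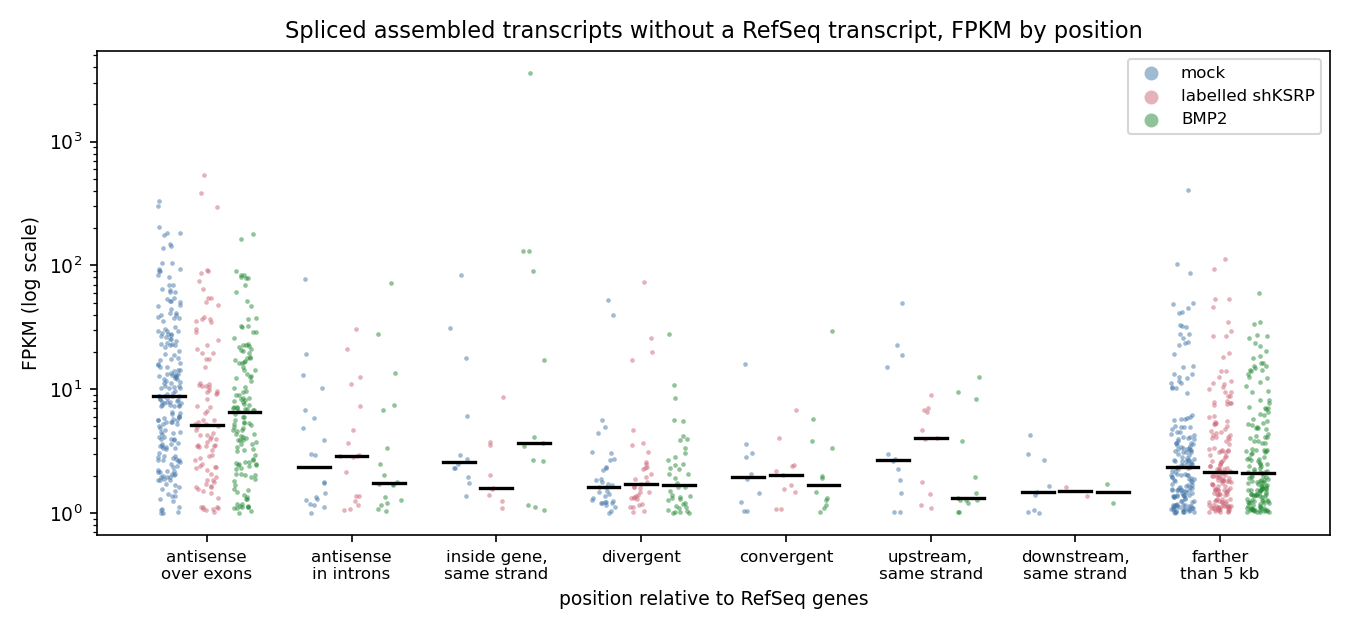
FPKM (log scale) of each of the 473, 336 and 396 transcripts by position relative to RefSeq genes, with 1 point for each transcript, coloured by library, and black bars at the medians. The medians of transcripts opposite to exons (8.79, 5.15 and 6.49) lie above those of the transcripts farther than 5 kb away (2.35, 2.12 and 2.12).

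About 9 in 10 of these places had something assembled in another library, but fewer had the same structure. The span of 421 of 473 transcripts in mock (89.0%, 95% Wilson interval 85.9 to 91.5), 311 of 336 in the library labelled shKSRP (92.6%, 89.2 to 94.9) and 362 of 396 in the BMP2 library (91.4%, 88.2 to 93.8) overlapped an assembled transcript of another library on either strand. Exon bases on the same strand were shared by 57.7%, 70.8% and 68.7%, an identical intron by 48.0%, 58.3% and 59.3%, and the whole chain of introns by 37.6%, 41.4% and 44.9%. Nothing overlapped 52, 25 and 34 of the transcripts in either other library. Of the spliced assembled transcripts at RefSeq loci with at least 1 FPKM, 86.1%, 89.3% and 88.6% overlapped by span, so the overlap by span was near this background. Of those, 83.1%, 85.9% and 85.8% shared exon bases on the same strand and 78.5%, 83.2% and 82.4% an identical intron, more than the members did, and 34.4%, 39.2% and 37.1% the whole chain. Of those with 2 exons, 46.6%, 51.7% and 52.1% had an identical intron. Transcripts with 6 or more exons shared an identical intron with another library in 12 of 13, 21 of 23 and 15 of 15 cases. The intervals treat transcripts as independent, although several can come from the same locus.

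The shares differed with position. Opposite to exons, 14.9% of the transcripts in mock had an identical intron in another library (10.6 to 20.4), as did 32.3% in the library labelled shKSRP (23.8 to 42.2) and 25.7% in the BMP2 library (19.1 to 33.7). For all other members the shares were 72.7% (67.1 to 77.7), 68.8% (62.6 to 74.3) and 76.9% (71.4 to 81.6). These intervals too treat transcripts as independent. Opposite to exons, 91.6%, 84.4% and 84.6% of the transcripts had 2 exons, against 49.1%, 49.4% and 53.7% of those farther than 5 kb from a gene. Among all members, an identical intron was shared by 31.5%, 44.9% and 44.2% of those with 2 exons. With 3 or more exons it was shared by 84.9%, 79.4% and 88.2%. The part of exon number was not tested. Among the 745 loci, the rule was met in all 3 libraries at 86 (11.5%), in 2 at 127 (17.0%) and in 1 at 532 (71.4%). Of the loci met in a single library, 238 were for mock, 128 for the library labelled shKSRP and 166 for the BMP2 library. Loci opposite to exons met the rule in all 3 libraries at 23 of 347 (6.63%), and divergent loci at 12 of 50 (24.0%).

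**Figure D2:**
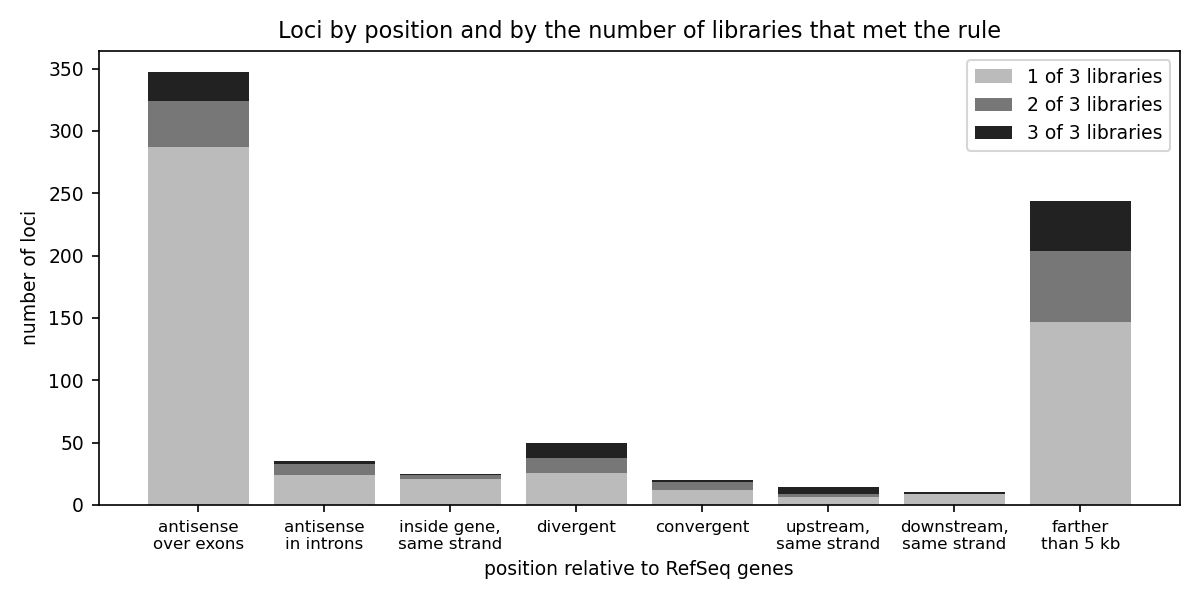
Number of loci in each position class, with bars stacked by the number of libraries in which the rule was met. Of 347 loci opposite to exons 287 met it in 1 library, and of 244 loci farther than 5 kb from a gene 147 did so.

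Antisense RNAs run opposite to a gene and can share bases with its mRNA. Most of the antisense transcripts found here followed the exons of the gene on the other strand closely. They lay over the last exon of the sense gene in 196 of 202 cases for mock, 89 of 96 for the library labelled shKSRP and 127 of 136 for the BMP2 library. The median transcript had 96.9%, 94.9% and 93.3% of its exonic bases inside exons of the sense gene. In 119, 55 and 77 of the transcripts 90% or more of these bases lay inside, and some named loci below overlapped the gene's exons by a small part. Most of the antisense transcripts had 2 exons (185, 81 and 115), and in 67, 31 and 37 the intron lay within a single exon of the sense gene. None shared an intron with it. In mock 130 of the 202 were above their sense gene in FPKM, against 31 of 96 for the library labelled shKSRP and 67 of 136 for the BMP2 library. Since the sources used here do not say whether strand was marked, reads of the gene and of its antisense partner cannot be told apart, and the way Cufflinks divided them was not tested.

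The antisense locus of Ctnnb1 (chr9:120867740-120869627, minus strand) had 2 exons, opposite to exons of the gene for β-catenin, which joins cadherins to actin and carries Wnt signals. It was at 205 ± 3.8 FPKM in mock, and nothing was assembled on that strand in the other libraries. Ctnnb1 itself was at 68.4 ± 1.4 (mock), 253 ± 2.4 (library labelled shKSRP) and 158 ± 2.0 (BMP2). Ctnnb1 was thus lowest in the library that held the antisense transcript.

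The antisense locus of Eno1 (chr4:149622214-149622985, minus strand), a glycolytic enolase, was assembled on its strand in the library labelled shKSRP alone, at 536 ± 13. Eno1 was at 644 ± 4.9 (mock), 296 ± 3.3 (library labelled shKSRP) and 504 ± 4.4 (BMP2), and again lowest where the antisense transcript stood. Opposite to Col6a3, a chain of collagen VI, chr1:92663436-92669505, plus strand, the locus was at 162 ± 4.1 in the BMP2 library and listed at 0 on its strand in the others, with Col6a3 at 26.9 ± 0.46 (mock), 81.7 ± 0.88 (library labelled shKSRP) and 37.7 ± 0.64 (BMP2). There the gene was lowest in mock and highest in the library labelled shKSRP, both of them without the antisense transcript.

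In mock alone, on their strand, stood also the loci opposite to Ywhaz, a 14-3-3 adaptor protein (181 ± 2.6), Fscn1, an actin bundler (303 ± 8.9), and Myh9, a nonmuscle myosin (148 ± 3.6). Their genes were at 307 ± 3.7, 339 ± 3.7 and 487 ± 6.7 for Ywhaz, 253 ± 3.4, 156 ± 1.9 and 359 ± 3.8 for Fscn1 and 376 ± 4.4, 479 ± 3.3 and 386 ± 2.7 for Myh9. Ywhaz was lowest in mock and Fscn1 lowest in the library labelled shKSRP, and Myh9 was highest in the library labelled shKSRP. Opposite to Ahnak, a very large scaffold protein (chr19:9076124-9093863, minus strand), the locus was at 166 ± 1.4 in the library labelled shKSRP and at 79.1 ± 0.86 in the BMP2 library, and was not assembled in mock, where Ahnak was highest (58.0 ± 0.44, 18.2 ± 0.28 and 12.8 ± 0.27). Opposite to Plec, the cytolinker plectin (chr15:76001402-76044059, plus strand), it was at 93.6 ± 0.85 in mock and at 296 ± 4.6 in the library labelled shKSRP, and both it and Plec were listed at 0 in the BMP2 library. A gene listed at exactly 0 beside values of 12.4 ± 0.28 and 23.5 ± 0.37 can be a failed estimate.

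Antisense loci assembled in all 3 libraries were fewer. Opposite to Msn (moesin, a linker of membrane and actin), chrX:93361808-93364616, minus strand, the locus was at 182 ± 2.6 (mock), 54.1 ± 1.6 (library labelled shKSRP) and 89.9 ± 2.0 (BMP2). Msn was at 92.4 ± 1.6, 213 ± 1.9 and 133 ± 1.9 in the same order, so the locus was highest and the gene lowest in mock. Opposite to Ubb-ps, a ubiquitin B pseudogene, chr14:46703701-46704654, minus strand, the locus was at 332 ± 7.9 (mock), 387 ± 7.5 (library labelled shKSRP) and 180.2 ± 5.3 (BMP2), and reads of a pseudogene and of its parent gene can be exchanged. The locus opposite to Vars, a tRNA synthetase for valine (chr17:35133709-35139471, minus strand), was at 117 ± 2.1, 37.0 ± 0.97 and 25.7 ± 0.71 with Vars at 66.6 ± 1.0, 66.4 ± 1.6 and 33.4 ± 0.88. Of this locus 419 exonic bases lay over exons of Vars, while its longest spliced transcript had 3357 nt. The locus over the last exon of Xist, the RNA that silences an X chromosome (chrX:100655773-100663376, plus strand), was at 39.5 ± 0.70 (mock), 51.1 ± 0.69 (library labelled shKSRP) and 44.5 ± 0.75 (BMP2). Xist was listed at 0 for mock and was at 21.4 ± 0.42 for the library labelled shKSRP and 5.88 ± 0.18 for the BMP2 library. As at Plec, the 0 can be a failed estimate.

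**Figure D3:**
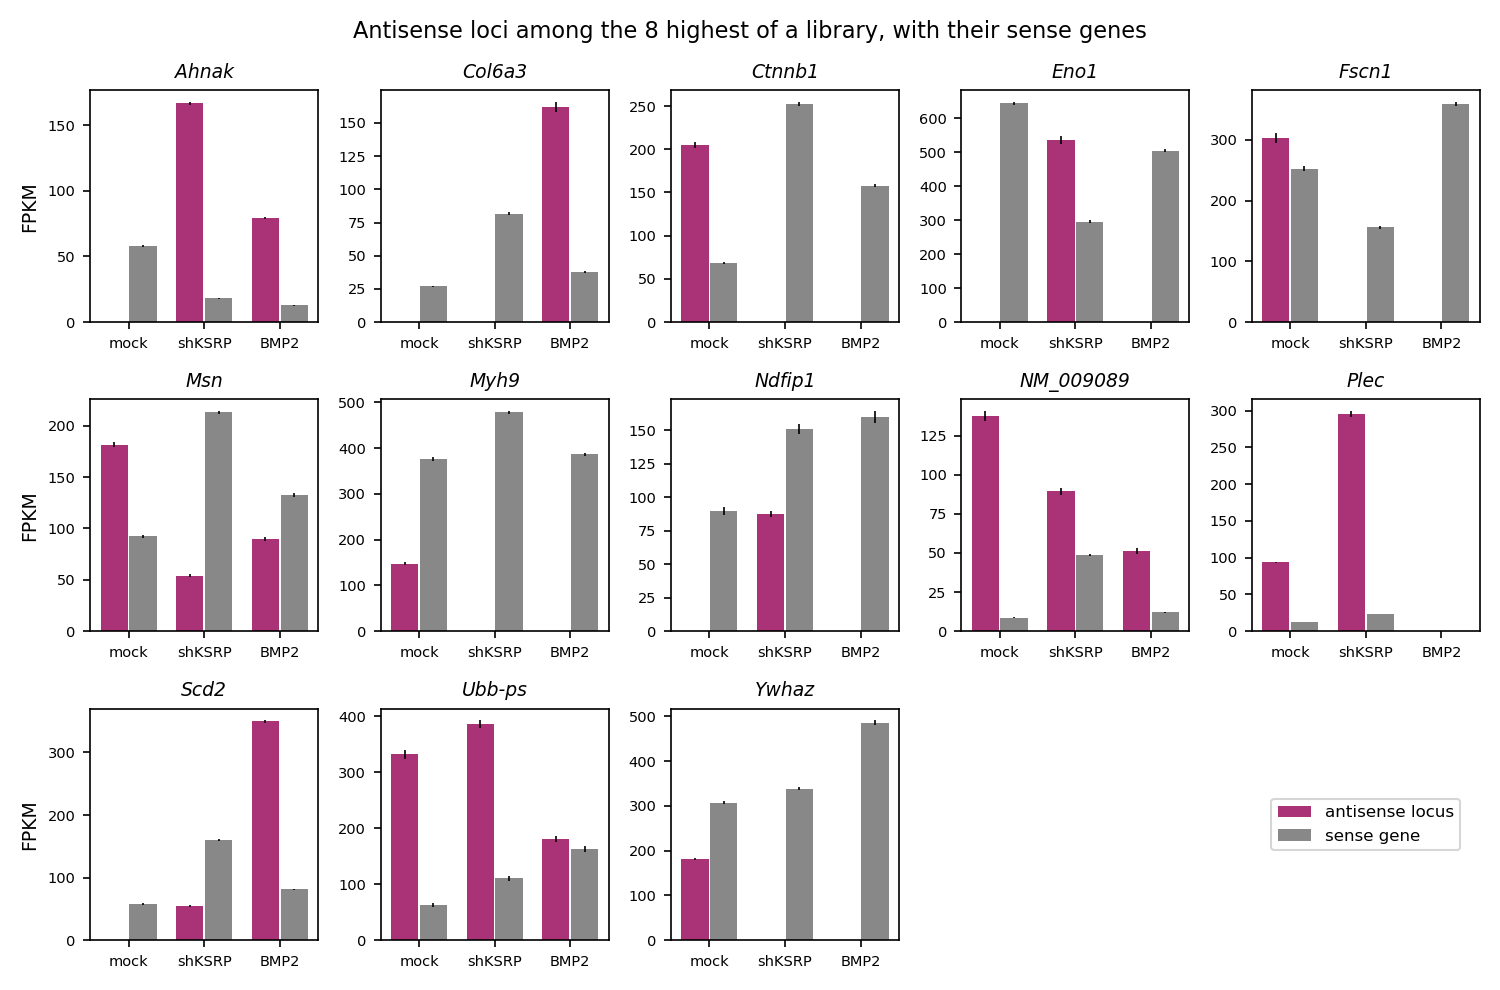
FPKM of 13 antisense loci that were among the 8 highest loci of a library (purple) and of the RefSeq gene opposite (grey) in the 3 libraries, with bars for the half-width of the deposited 95% intervals. The locus opposite to Ctnnb1 stands in mock alone, where Ctnnb1 is lowest, and that opposite to Eno1 in the library labelled shKSRP alone, where Eno1 is lowest.

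The same reading was made over all antisense loci that met the rule in 1 library of a pair and were listed at 0 on their strand in the other. Where mock had the antisense transcript and the library labelled shKSRP did not (156 loci), the sense gene had a median log2 ratio of FPKM + 1 (with over without) of −0.75, and it was lower by at least 2-fold at 60 loci (38.5%) and higher by as much at 10. Of 11475 RefSeq genes, 11.0% were lower by 2-fold in mock than in the library labelled shKSRP and 13.0% were higher. Where mock had it and the BMP2 library did not (154 loci), the median was also −0.75 and 61 genes were lower by 2-fold (39.6%, where 9.18% of RefSeq genes were lower in mock than in the BMP2 library and 9.09% higher). Where the BMP2 library had it and the library labelled shKSRP did not (96 loci), the median was −0.61 and 23 genes were lower by 2-fold (24.0%, beside 6.06% of RefSeq genes). Where the BMP2 library had it and mock did not (91 loci), the median was −0.33 and 12 were lower by 2-fold (13.2%, beside 9.09% of RefSeq genes). In these last 3 readings 7, 6 and 2 genes were higher by 2-fold, beside 9.09%, 8.60% and 9.18% of RefSeq genes.

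The 54 loci that the library labelled shKSRP had and mock lacked gave −0.01. Of their genes 6 were lower by 2-fold (11.1%, beside 13.0% of RefSeq genes) and 6 higher (beside 11.0%). The 56 loci that it had and that were listed at 0 in the BMP2 library gave −0.17. There 5 genes were lower by 2-fold (8.93%, beside 8.60% of RefSeq genes) and 4 higher (beside 6.06%), so the lower shares were near the background. Loci outside every RefSeq gene gave medians for their nearest gene of 0.15, 0.08, −0.20, 0.31, 0.20 and 0.20 in the same 6 comparisons. The comparisons share libraries, so they are not independent, and the presence of the transcript is itself part of the rule. They are therefore given as a description. Counted at any size, the sense gene was lower at 114 of 156 loci (73.1%; 48.5% of RefSeq genes) for mock with and the library labelled shKSRP without, and at 123 of 154 (79.9%; 52.2%) for mock with and the BMP2 library without. For the BMP2 library with, it was lower at 78 of 96 (81.2%; 47.5%) where the library labelled shKSRP was without and at 66 of 91 (72.5%; 47.2%) where mock was without. For the library labelled shKSRP with, it was lower at 28 of 54 (51.9%; 50.9%) and 36 of 56 (64.3%; 51.3%) against mock and the BMP2 library.

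A second measure put the reads of both strands together. FPKM times length in kb is proportional to fragments, and where mock had the antisense transcript and the library labelled shKSRP did not, the median log2 ratio of the gene alone was −0.85 (149 loci with values above 0). With the fragments of the antisense locus added to those of the gene it was −0.14, and the number of loci past 2-fold in either direction went from 76 to 36. Since the locus was listed at 0 in the library without it, the addition could only raise each ratio. The direction of the change was thus fixed in advance in every pair, so it cannot show how reads were divided between strands. For mock against the BMP2 library the median went from −0.82 to −0.14 (145 loci, 69 to 29 past 2-fold), and for the BMP2 library against the library labelled shKSRP from −0.61 to −0.13 (93 loci, 35 to 16). In the reverse pairs the sum went above 0. The median went from −0.30 to 0.27 for the BMP2 library against mock (89 loci, 10 to 18 past 2-fold), from 0.04 to 0.47 for the library labelled shKSRP against mock (51 loci, 13 to 12) and from −0.27 to 0.29 for the library labelled shKSRP against the BMP2 library (53 loci, 6 to 3). At Ctnnb1 the sum of FPKM times kb was 495 for mock, 882 for the library labelled shKSRP and 547 for the BMP2 library, where the gene alone had 237, 882 and 547. Mock was still lowest at Ctnnb1, by a smaller ratio.

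**Figure D4:**
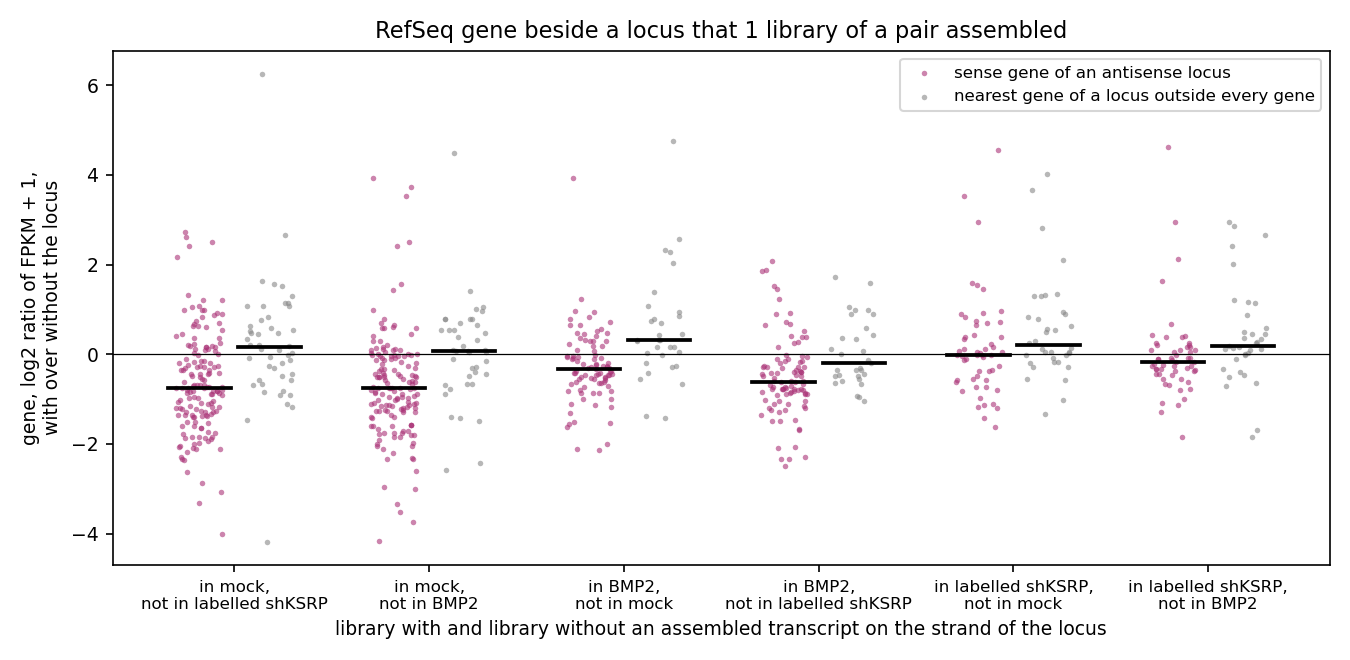
Log2 ratio of FPKM + 1 of the RefSeq gene between the library with and the library without an assembled transcript on the strand of the locus, with 1 point for each locus and black bars at the medians. Sense genes of antisense loci (purple) have medians below 0 where mock held the transcript (−0.75 and −0.75), and the nearest genes of loci outside every gene (grey) have medians above 0 there (0.15 and 0.08).

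Matching by structure gave a GENCODE M21 gene to 189 of the 745 loci (25.4%), where 1 or more consecutive introns had equal lengths, on the same strand, between the same flanking genes. The same search on the opposite strand matched 24 loci, and none by 2 or more introns, against 79 on the assigned strand. Of the 189, 129 were noncoding genes (67 long intergenic, 34 antisense, 21 processed transcripts and 7 others), 42 were protein-coding, 15 pseudogenes and 3 constant segments of T cell receptor genes. Loci that met the rule in all 3 libraries were matched in 54.7%, those in 2 in 43.3% and those in 1 in 16.4%. By position, 56.0% of divergent loci, 37.3% of those farther than 5 kb and 10.4% of those opposite to exons had a match. Opposite to exons 36 loci matched on the assigned strand, 8 of them by 2 or more introns, and 17 on the opposite strand. For divergent loci these matches were 28 and 2, and for those farther than 5 kb 91 and 5. Matches opposite to exons are thus less certain than the others. A match says only that a later annotation holds introns of the same lengths at the same place.

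The transcripts with the most exons matched protein-coding genes without a RefSeq transcript at these places in the files. Rnf213, a large ubiquitin ligase with an ATPase motor (chr11:119279442-119348732, plus strand), was matched by 37 consecutive introns of a transcript with 57 exons, and its junction of exons 18 and 19 is among those given. The locus was at 18.2 ± 0.84 (mock), 12.8 ± 0.57 (library labelled shKSRP) and 5.002 ± 0.37 (BMP2), a log2 ratio of −1.68 for the BMP2 library over mock. These half-widths correspond to 1858, 2027 and 720 fragments, by which mock was not the highest. The value sums all assembled transcripts of the locus, and the part of this in the order was not tested. Srcap, the motor of a chromatin remodeller that exchanges histone H2A.Z (chr7:134654500-134710425, plus strand), was matched by 23 introns, and the small nucleolar RNA gene Snora30 lies inside it on the same strand. It was at 3.14 ± 0.31 (mock), 12.3 ± 0.34 (library labelled shKSRP) and 8.99 ± 0.34 (BMP2), lowest in mock. Hectd4, a HECT-domain ubiquitin ligase (chr5:121772808-121818815, plus strand), was at 1.24 ± 0.18, 5.13 ± 0.20 and 4.04 ± 0.19 in the same order, and Setd1b, a histone methyltransferase (chr5:123592134-123618636, plus strand), at 1.27 ± 0.16, 3.10 ± 0.17 and 2.48 ± 0.16. Both were also lowest in mock, and in mock neither had a transcript of 1 FPKM.

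Other matched coding genes are given without regard to their order. Stard9, a kinesin of the mitotic spindle (chr2:120521847-120545072, plus strand), held the longest spliced transcript, of 15509 nt, followed by an antisense locus of Cyhr1 (14612 nt), Rnf213 and an antisense locus of Rnpepl1 (12665 nt). The Cyhr1 and Rnpepl1 loci had 1259 and 3039 of their exonic bases over exons of those genes. Stard9 was at 3.46 ± 0.26 in mock and at 2.34 ± 0.097 in the library labelled shKSRP, with a single-exon transcript without strand in the BMP2 library. Hmcn2, a hemicentin of the extracellular matrix (chr2:31302319-31316933, plus strand), was at 4.79 ± 0.44 (mock), 6.14 ± 0.59 (library labelled shKSRP) and 2.26 ± 0.27 (BMP2). BC034090 was at 8.07 ± 0.71 (mock), 7.55 ± 0.36 (library labelled shKSRP) and 3.50 ± 0.26 (BMP2), with 9 of 9 introns matched. Zfp950, a zinc finger gene, was at 4.23 ± 0.34, 12.04 ± 2.8 and 8.42 ± 0.51 in the same order, lowest in mock like Srcap, while Hmcn2 and BC034090 were lowest in the BMP2 library. The Zfp950 value of the library labelled shKSRP has a half-width as wide as 73 fragments would give, against 623 in mock and 1097 in the BMP2 library. By position the Srcap and Stard9 loci are among those opposite to exons, since Srcap lies over 1700008J07Rik and Stard9 over Cdan1.

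Among noncoding genes, Snhg15 was the highest of those matched by 2 or more introns. Snhg15 is a host gene of a small nucleolar RNA, spliced and short-lived, and it lay at chr11:6425593-6428839, minus strand, with 3 of 3 introns matched and the junction of exons 1 and 2 among those given. It was at 92.0 ± 4.3 (mock), 21.9 ± 2.1 (library labelled shKSRP) and 30.4 ± 2.3 (BMP2). Mock was thus highest, with log2 ratios of −2.02 for the library labelled shKSRP and −1.56 for the BMP2 library, which share the mock library. A second host of small nucleolar RNAs, the RefSeq gene Gas5, held within its span a member of 147 nt on its own strand in the BMP2 library. Gas5 was at 231 ± 9.9 (mock), 41.2 ± 1.2 (library labelled shKSRP) and 57.2 ± 2.1 (BMP2). That member matched Gm37362 by 1 intron and was part of the RefSeq locus in mock.

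Of the other noncoding genes, 3300005D01Rik (chr17:5799380-5816767, plus strand) differed little, at 14.2 ± 0.67 (mock), 14.7 ± 1.2 (library labelled shKSRP) and 12.9 ± 0.76 (BMP2). Gm11033 (chr8:77342217-77357884, minus strand) was at 10.3 ± 1.6 in mock and at 7.06 ± 1.3 in the BMP2 library and at 1.07 ± 0.35 in the library labelled shKSRP, a log2 ratio to mock of −2.45. Gm12602 (chr4:88745768-88774553, minus strand) was at 21.6 ± 1.1, 5.78 ± 0.38 and 6.05 ± 0.34 in mock, the library labelled shKSRP and the BMP2 library, highest in mock. AU020206 (chr7:82913930-82926976, minus strand) was at 13.2 ± 0.90 in mock and at 3.20 ± 0.46 in the BMP2 library, with no stranded transcript in the library labelled shKSRP.

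2010001A14Rik and Sap30l, a protein of histone deacetylase complexes, stood head to head with 177 nt between them. The noncoding partner (chr11:57609139-57614962, minus strand) was at 8.54 ± 1.8 (mock), 10.2 ± 1.7 (library labelled shKSRP) and 17.8 ± 2.5 (BMP2), and Sap30l was at 27.0 ± 1.1 (mock), 17.6 ± 0.87 (library labelled shKSRP) and 23.3 ± 1.0 (BMP2). 1700113A16Rik, opposite to Mef2d (chr3:87971983-87981980, minus strand), was at 8.10 ± 0.40 (mock), 3.47 ± 0.28 (library labelled shKSRP) and 16.2 ± 0.48 (BMP2). Mef2d, a transcription factor of muscle genes, was at 7.75 ± 0.38, 22.3 ± 0.72 and 8.84 ± 0.51 in the same order, so the antisense RNA was lowest and Mef2d highest in the library labelled shKSRP. Gm11973, opposite to Purb (chr11:6367600-6393490, plus strand), was at 21.8 ± 0.40 (mock), 23.0 ± 0.41 (library labelled shKSRP) and 6.82 ± 0.31 (BMP2). Purb, a repressor that binds purine-rich DNA, was listed at 0 for mock and for the library labelled shKSRP and was at 14.1 ± 0.37 for the BMP2 library. As at Plec, the values of 0 can be failed estimates.

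**Figure D5:**
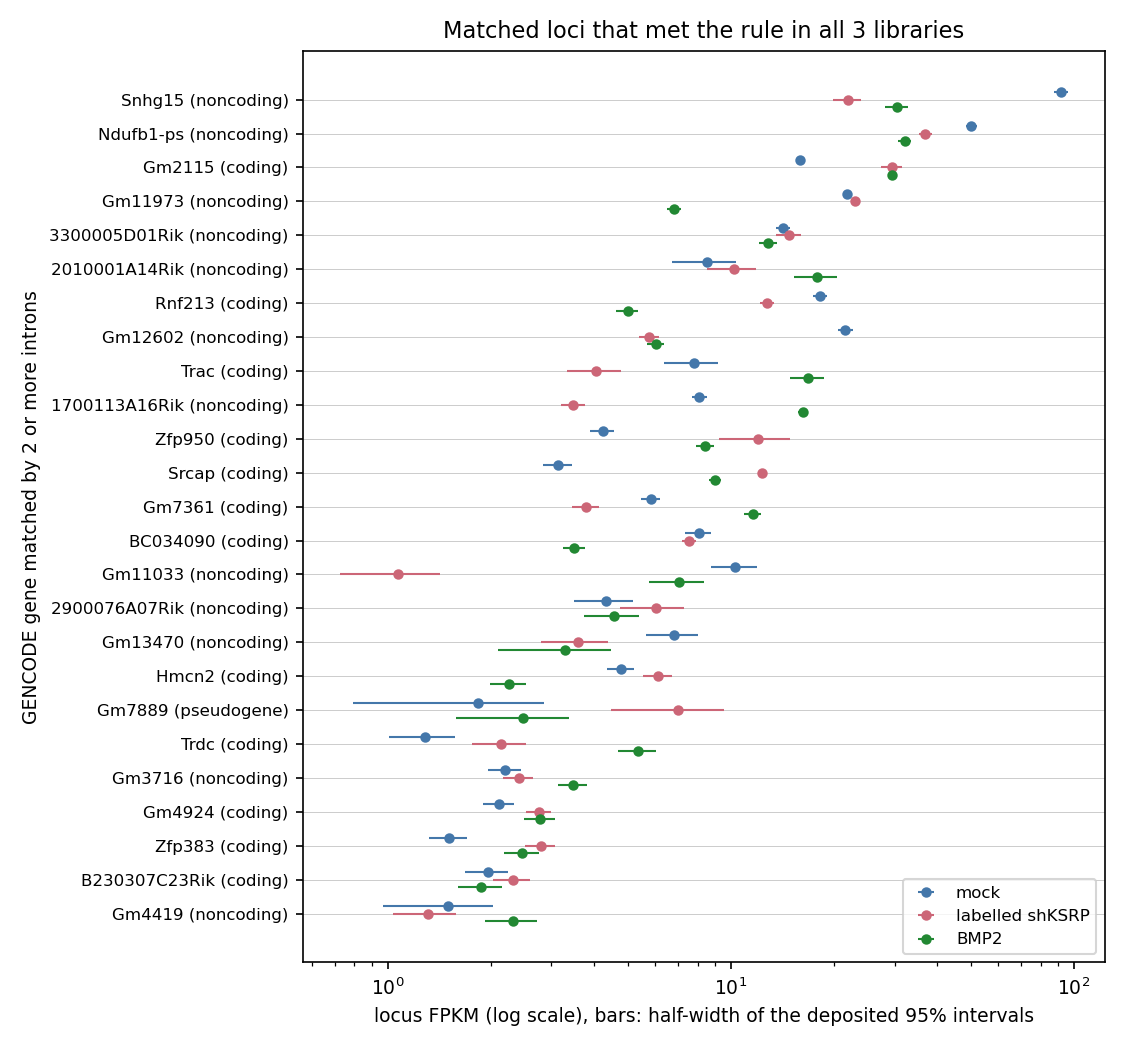
Locus FPKM (log scale) in the 3 libraries for 25 loci that matched a GENCODE gene by 2 or more introns and met the rule in all 3 libraries, with bars for the half-width of the deposited intervals. Snhg15 is highest in mock (92.0), Srcap is lowest in mock (3.14), and the points of 3300005D01Rik lie between 12.9 and 14.7.

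2900076A07Rik carried a microRNA. Its 4 exons (chr7:88668478-88676377, plus strand) had 3 of 3 introns matched, and Mir1839 lay in an intron on the same strand. The mature miR-1839-5p of RefSeq (GRCm38.p6) is shown because Mir1839 is the only microRNA gene of the files' RefSeq list that lies inside a locus on the locus's own strand, with its seed, bases 2 to 8, in capitals.
miR-1839-5p: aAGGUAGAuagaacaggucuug
The locus was at 4.33 ± 0.85 (mock), 6.04 ± 1.3 (library labelled shKSRP) and 4.56 ± 0.83 (BMP2), and these intervals overlap. Other microRNA genes inside members lay on the opposite strand, among them Mir214, Mirlet7d, Mirlet7c-1 and Mir99a. The sequencing of polyadenylated RNA does not measure the mature microRNA.

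Constant segments of T cell receptor genes were assembled as spliced loci beside Dad1. Trac, the constant part of the α chain (chr14:54805482-54843594, plus strand), was at 7.79 ± 1.4 (mock), 4.05 ± 0.73 (library labelled shKSRP) and 16.8 ± 1.9 (BMP2), and Trdc, that of the δ chain (chr14:54741982-54765776, plus strand), at 1.29 ± 0.28 (mock), 2.14 ± 0.39 (library labelled shKSRP) and 5.37 ± 0.67 (BMP2). Both were highest in the BMP2 library. Ptprc, the pan-leukocyte marker, was at 0.00598 FPKM in mock and listed at 0 in the other libraries, and Cd79a, a B cell marker, was between 0.0656 and 0.155. Hba-a1, a haemoglobin gene of red cells, was at 2.76, 2.25 and 0.921. The part of blood cells in these values was not tested.

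Loci near regulators of muscle or of BMP signalling were few in number, although their shares were above those of the lists among RefSeq genes. The nearest gene belonged to the muscle list at 4 loci (0.537% of loci, where the list makes up 0.194% of RefSeq genes) and to the BMP and osteoblast list at 3 (0.403% beside 0.150%). In these counts a pair at the same place beside Pax3 and both loci beside Smad7 enter singly. Smad6 and Smad7 are inhibitors that BMP receptors induce. A divergent locus of 4 exons, 2054 nt from Smad7 (chr18:75518186-75524965, minus strand), was at 4.83 ± 0.44 (mock), 3.04 ± 0.35 (library labelled shKSRP) and 10.3 ± 0.67 (BMP2), with Smad7 at 4.97 ± 0.32 (mock), 8.04 ± 0.32 (library labelled shKSRP) and 27.9 ± 0.64 (BMP2). A locus of 5 exons, 11292 nt from Smad6 (chr9:63783720-63789591, minus strand), was at 0.882 ± 0.27 (mock), 0.945 ± 0.21 (library labelled shKSRP) and 2.10 ± 0.35 (BMP2), with Smad6 at 13.2 ± 0.54 (mock), 18.1 ± 1.1 (library labelled shKSRP) and 102 ± 2.5 (BMP2). Each of the loci and each of the genes was highest in the BMP2 library. A further divergent locus at 293 nt from Smad7, matched to Gm20544, was at 0.877 ± 0.19 for mock and 1.47 ± 0.42 for the library labelled shKSRP and was not assembled for the BMP2 library. Opposite to Musk, a receptor kinase that organises the neuromuscular synapse, a locus was at 8.36 ± 0.38 in the BMP2 library and listed at 0 on its strand in the others, with Musk at 2.37 ± 0.18, 21.5 ± 0.55 and 3.59 ± 0.22. The loci beside Pax3, a regulator of muscle precursors, were a pair on opposite strands of the same place, at 1.48 ± 0.23 and 1.12 ± 0.19 in the BMP2 library, where Pax3 was below 1 FPKM.

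Of 61 noncoding genes listed as known in muscle or mesenchymal cells or as broadly expressed, 41 were already RefSeq genes of the files, and 3 lay between the flanking genes of a locus on its strand. Snhg15 was matched. The locus near Jpx was the one over the last exon of Xist, with no intron matched, and the locus near Nespas, opposite to introns of Gnas, was at 4.66 ± 0.44 in the library labelled shKSRP alone with no intron matched. None of the 12 listed micropeptide genes of muscle was found among the loci, and 7 of them were already RefSeq genes. Bvht, a noncoding RNA known from the cardiac lineage, was matched by 2 of 2 introns and was at 1.98 ± 0.38 in mock, with no stranded transcript elsewhere. It was chosen after its values were seen.

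Divergent pairs of genes often share a promoter region. The 50 divergent loci had a median gap of 323.5 nt to the gene, and 35 lay within 1 kb. Over the 16 divergent loci with values for locus and gene in every library, Spearman's rho across loci between the log2 ratios of locus and gene was 0.26 for the library labelled shKSRP against mock, 0.45 for the BMP2 library against mock and 0.65 for the library labelled shKSRP against the BMP2 library. The signs were the same at 7, 10 and 12 of the 16. Over 56 loci farther than 5 kb from a gene rho was 0.21, 0.13 and 0.36, and over the 26 loci opposite to exons it was 0.04, 0.29 and 0.03. All these points come from the same 3 libraries, so rho is a description without a p-value.

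Most calls between libraries over all loci were at loci listed at 0 on their strand in 1 library. A value of 0 means no assembled transcript over the exons on that strand: in mock, the library labelled shKSRP and the BMP2 library, nothing at all was assembled at 100, 174 and 129 loci, a transcript on the opposite strand only at 77, 118 and 97, and a single-exon transcript without strand at 81, 66 and 85. A locus was called at a log2 ratio of FPKM + 1 of at least 1 in size. The library labelled shKSRP was higher than mock at 160 of 745 loci (21.5%), 137 of them listed at 0 in mock, and lower at 281 (37.7%), 249 of them listed at 0 in it. With transcripts that have no strand counted in, the calls were 123 higher and 268 lower. Among RefSeq genes 11.0% were higher and 13.0% lower. The BMP2 library was higher than mock at 197 loci (26.4%; 9.18% of genes) and lower at 267 (35.8%; 9.09% of genes), with 167 and 235 of these at 0 in the lower library. The library labelled shKSRP was higher than the BMP2 library at 155 (20.8%; 6.06% of genes) and lower at 204 (27.4%; 8.60% of genes). Both comparisons with mock share that library.

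Over the 173 loci with a value in all 3 libraries the shares were nearer to the background. The library labelled shKSRP was higher than mock at 20 (11.6%) and lower at 24 (13.9%), where 9.51% and 10.9% of the 10708 RefSeq genes above 0 in every library were called. The BMP2 library was higher than mock at 26 (15.0%) and lower at 22 (12.7%), beside 7.63% and 7.25% of genes. Against the BMP2 library, the library labelled shKSRP was higher at 14 (8.09%) and lower at 28 (16.2%), beside 4.59% and 6.69%. The median log2 ratios over these loci were −0.02, 0.08 and 0.03, and over the RefSeq genes −0.01, 0.04 and −0.02. In the last comparison the median was thus above 0 while more loci were called lower than higher.

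The loci with the highest ratio of the library labelled shKSRP over mock were led by one with 4 exons that is 64646 nt from Gli2 (chr1:121014842-121049604, minus strand). It was at 1.14 ± 0.29 (mock), 11.2 ± 0.60 (library labelled shKSRP) and 1.26 ± 0.22 (BMP2), a log2 ratio to mock of 2.51, while Gli2, a transcription factor of Hedgehog signalling, was below 0.1 FPKM in each library. A locus of 6 exons near Rbms3 (chr9:116301847-116317319, plus strand) was at 0.424 ± 0.19 in mock and at 4.93 ± 0.48 in the library labelled shKSRP. The Srcap and Plec loci were also among the 6 highest, the Plec locus with fewer fragments in the library labelled shKSRP than in mock. So were antisense loci of Aqp5 (2.35 ± 0.35, 10.8 ± 0.46 and 1.04 ± 0.34, in the order mock, library labelled shKSRP, BMP2) and Apol10b (2.21 ± 0.44, 9.73 ± 1.1 and 2.63 ± 0.56). The Aqp5 locus, with a longest spliced transcript of 3618 nt, had 944 exonic bases over exons of Aqp5. Lowest was a locus of 2 exons near Cfap20dc (chr14:9631853-9632774, minus strand), at 48.7 ± 2.7 in mock and at 4.42 ± 0.84 in the library labelled shKSRP, and listed at 0 on its strand in the BMP2 library, which had a single-exon transcript without strand there. The Gm11033, Snhg15 and Gm28710 loci followed among the 6 lowest, the last at 5.26 ± 0.80 (mock), 0.741 ± 0.29 (library labelled shKSRP) and 9.52 ± 2.6 (BMP2). Also among them were an antisense locus of Gm10069, at 9.21 ± 0.88 in mock and at 1.12 ± 0.28 in the library labelled shKSRP, and a locus outside genes whose nearest gene is 4921513I03Rik, matched to 4930471E19Rik by 1 intron, at 8.48 ± 0.82, 1.03 ± 0.28 and 3.25 ± 0.58 in the order mock, library labelled shKSRP, BMP2.

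For the BMP2 library over mock the highest ratio was that of a locus with 6 exons near Efcab1 (chr16:14994813-15114349, minus strand). It was at 0.490 ± 0.19 (mock), 0.746 ± 0.22 (library labelled shKSRP) and 11.3 ± 0.91 (BMP2), a log2 ratio to mock of 3.05 and to the library labelled shKSRP of the reverse sign, −2.82. A locus near Zbtb8a, divergent at 4622 nt (chr4:129059894-129072226, plus strand), was at 0.364 ± 0.14, 0.433 ± 0.19 and 5.37 ± 0.66 in the order mock, library labelled shKSRP and BMP2 library, and a locus near Atp6v1c1 (chr15:38642473-38658049, minus strand), matched to Gm45924 by 1 intron, at 0.550 ± 0.22, 0.473 ± 0.16 and 5.33 ± 0.33. A locus of 3 exons near Trim42 (chr9:97176113-97182240, plus strand) was at 8.90 ± 1.3 (mock), 5.39 ± 1.8 (library labelled shKSRP) and 31.7 ± 2.4 (BMP2), among the 6 lowest of the library labelled shKSRP over the BMP2 library. In these 4 loci the BMP2 library was highest, beyond the half-widths. The other 3 of the 6 highest lay near Dynlt1f (2.51 ± 1.4, 4.05 ± 1.5 and 14.9 ± 7.9), Zfp868 (3.15 ± 0.34, 4.14 ± 0.35 and 13.4 ± 3.4) and Mosc1 (1.04 ± 0.25, 0.504 ± 0.17 and 5.78 ± 0.52), in the same order. The intervals of the Zfp868 locus correspond to 335, 553 and 63 fragments and those of the Dynlt1f locus to 13, 29 and 14. Neither locus thus had the most fragments in the BMP2 library, unlike the Mosc1 locus (68, 34 and 503). The Vars antisense and AU020206 loci and the locus inside Gas5, in mock joined to the RefSeq locus, were among the 6 lowest for BMP2 over mock. With them were loci near Gm10416, at 13.4 ± 9.7 in mock and at 1.59 ± 0.87 in the BMP2 library, near Dhrs4, at 104 ± 24, 53.4 ± 15 and 27.0 ± 6.4 in the 3 libraries, and opposite to Arhgap11a, at 8.80 ± 0.55 in mock, with a log2 ratio of −1.81.

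Between the library labelled shKSRP and the BMP2 library, a locus inside an intron of Pecr, on the opposite strand (chr1:72308744-72312036, plus strand), had the highest ratio, at 11.0 ± 0.93 and 0.671 ± 0.098, with nothing in mock. The loci near Gli2, opposite to Aqp5 and of Gm11973 were also among the 6 highest. So were loci near Grap, at 13.9 ± 6.4 and 3.68 ± 2.0, and opposite to Cacfd1, at 8.55 ± 0.68 and 2.09 ± 0.21. Among the 6 lowest were Gm28710, an antisense locus of Bicc1, matched to 4930533K18Rik by 1 intron, at 1.97 ± 0.31 and 16.2 ± 0.71, and an antisense locus of Lemd3, at 0.337 ± 0.20 and 5.94 ± 0.50. The Bicc1 locus, with a longest spliced transcript of 2458 nt, had 277 exonic bases over exons of Bicc1. The antisense locus of Scd2, a stearoyl-CoA desaturase (chr19:44335803-44381356, minus strand), was at 54.6 ± 1.2 and 349.9 ± 2.7, with a single-exon transcript without strand in mock, a log2 ratio of −2.66. Scd2 itself was at 57.6 ± 1.1, 160.2 ± 1.7 and 81.3 ± 1.2 in mock, the library labelled shKSRP and the BMP2 library. The gene was thus higher in the library labelled shKSRP and the locus higher in the BMP2 library, where its transcripts were joined to a RefSeq locus and so did not meet the rule.

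Several of the highest FPKM values rested on few fragments. Under 250 nt, which is the size selected on the gel, 16, 17 and 21 transcripts had a median half-width of 35.6%, 36.3% and 47.4% of FPKM, against 13.2%, 14.2% and 14.4% for longer ones. The highest value of all, 3604 ± 2081 FPKM in the BMP2 library, belonged to a transcript of 104 nt inside Hsd17b4 whose interval corresponds to 12 fragments. The highest in mock, 404 ± 103 near Zfp981, had 127 nt and 62 fragments, and 113 ± 51 near Zfp868 in the library labelled shKSRP had 128 nt and 20. Others of the 8 highest of a library were also under 250 nt, near Arhgef28 (93.0 ± 13, 203 nt, library labelled shKSRP) and in Wwp2 (130.2 ± 14, 205 nt, BMP2). A further one, whose span overlaps that of Vmn2r98, was at 89.7 ± 45 (128 nt, BMP2), and at 83.8 ± 46 in mock. The locus in Pde4d (130.4 ± 4.8, 621 nt, BMP2) had a narrower interval, which corresponds to 2924 fragments. None of the loci in Hsd17b4, near Zfp981 and near Zfp868 had an assembled transcript over its exons on the same strand in a second library. By contrast the interval of the Ctnnb1 antisense value corresponds to 11690 fragments. This count does not show from which strand they came, since 1230 of the 1257 nt lay over exons of Ctnnb1.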

How the data were processed

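RNA-seq was made from C2C12 cells, with 1 library for each group and oligo(dT) selection in 2 rounds, a gel size of 250 ± 25 bp and 18 PCR cycles, per the labels' protocols. The submitters' processing notes list Cufflinks 1.3.0 (assembly), TopHat 1.4.1 and Bowtie 0.12.7 (alignment tools), CASAVA 1.8 and mm9. Each deposited file lists transcripts with the FPKM and 95% bounds that the authors obtained, and a deposited score column was not used. Python 3.11.15, numpy 2.4.6, scipy 1.17.1 and matplotlib 3.10.9 were used.

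A locus joined members of the 3 libraries that shared exon bases on the same strand, and its FPKM is the sum over assembled transcripts sharing those bases. Half-widths were added in squares, and fragments are 4 times the square of FPKM over half-width. Log2 ratios used FPKM + 1, were called at 1 in size and had no test, since each group has 1 library. The background was 11475 RefSeq genes of at least 300 nt with 1 FPKM in some library. Loci were matched to GENCODE M21, which is on GRCm38, by intron lengths between the same flanking genes, and no coordinates of that build are given. GENCODE and RefSeq tables were used for names as well. The steps were tested on simulated data.

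Named loci are the 8 highest of each library, the 6 highest and 6 lowest ratios of each comparison, the 4 with most exons, the 4 longest, those enclosing a listed noncoding gene and those nearest the FPKM minimum. A few of these loci are not reported here, and the neighbours from the lists and loci matched by introns were named in addition. The members and lists were chosen with earlier results of these data known, and the alternatives without antisense loci were added after seeing the data.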

Additional observations from a re-analysis of the deposited data

How the results depend on the processing

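No paired analysis was possible because each group has 1 library, and for the same reason no replicate could be left out. Of 126 alternative values, 59 stayed within the spread or within 1.5 times the reported count and 67 moved. The cause was not tested except where an alternative keeps fewer transcripts by its own construction. In the order mock, library labelled shKSRP and BMP2 library, the number of transcripts was 191, 100 and 138 at 5 FPKM or more, 146, 131 and 136 with 3 or more exons, and 239, 213 and 229 without overlap of a RefSeq span. It was 553 and 665 at 0.5 FPKM and 199 and 241 at 2 FPKM in the library labelled shKSRP and the BMP2 library, and 271 and 260 without overlap of a RefSeq exon in mock and the BMP2 library.

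The share with a counterpart in another library was 57.7%, 70.8% and 68.7% by exons on the same strand, 52.2%, 63.4% and 64.9% by a reciprocal overlap of 50%, and 48.0%, 58.3% and 59.3% by an identical intron. It was 37.6%, 41.4% and 44.9% by all introns, and 50.1%, 61.9% and 58.6% against transcripts that meet the rule. At 5 FPKM or more it was 84.8% in mock, and without antisense loci over exons 95.2% in mock and 95% in the BMP2 library. With only RefSeq genes at 1 FPKM or more as neighbours, 38.3% of mock transcripts were opposite to exons, and 45.7%, 55.1% and 48.7% were farther away. The farther class held 41.9%, 53.6% and 47.5% with a limit of 2 kb, and 30.9%, 39.6% and 36.1% with 10 kb.

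Higher and lower loci for the library labelled shKSRP against mock were 54 and 149 with a pseudocount of 5, 68 and 162 at 5 FPKM in some library, 20 and 24 above 0 in all 3 libraries, and 98 and 109 without antisense loci over exons. For the BMP2 library against mock they were 77 and 143, 95 and 154, 26 and 22, and 96 and 98 in the same order. For the library labelled shKSRP against the BMP2 library they were 50 and 83, 65 and 106, 14 and 28, and 89 and 103. Without antisense loci the share of higher among called loci was 47.3% in place of 36.3% for the library labelled shKSRP against mock. Scaling the libraries to the same median moved no count past the limit. Half-widths were wider for transcripts under 250 nt (medians of 35.6% to 47.4% of FPKM) than for longer ones (13.2% to 14.4%).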
